A study of Homo sapiens with 6 samples.

Results

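The genes described here encode the subunits, activators, inhibitor and assembly factors of the proteasome. They were taken by symbol, as every gene whose symbol is PSM, a letter from A to G and a number, and whose description does not call it a pseudogene. This gave 48 of the 60605 genes listed: 19 of the core particle (8 PSMA and 11 PSMB), 20 of the regulatory cap (6 PSMC and 14 PSMD), 4 activators (PSME), 1 inhibitor (PSMF1) and 4 assembly factors (PSMG). RNA was sequenced from the human hepatoma line Huh-7, whose cells had been loaded with oleic acid (100 µM, 24 h) to raise their lipid content and then starved. Cells of 3 libraries received 100 µM pectolinarigenin, a plant flavone, for 24 h, and cells of 3 control libraries received DMSO with 0 µM pectolinarigenin. All 6 libraries therefore carry the oleic acid load and the starvation. Cells without oleic acid and other doses or times are not analysed here. Nothing in the labels ties the 3 libraries of a group to separate cultures, and the p-values therefore reflect the spread among these libraries alone, which may be technical.

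The proteasome degrades proteins that carry chains of ubiquitin. Its core particle is a barrel of stacked rings, in which PSMA subunits form the outer gates and PSMB subunits form the inner chamber, with the peptide-cutting sites on PSMB5, PSMB6 and PSMB7. The cap sits on the gate: its PSMC subunits form a ring of ATPases that unfolds the substrate, and its PSMD subunits bind, hold and strip ubiquitin. PSME activators can take the place of the cap, and PSMG proteins help the core rings to assemble. In human cells the transcription factor NFE2L1 is known to raise many proteasome genes together when proteasome activity is short. In bulk RNA, fewer cells and less RNA per cell cannot be told apart.

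Total counts per library were 16054283 to 20311261 in the pectolinarigenin group and 15140022 to 18652800 in the control group. All 9 hepatocyte and hepatoma genes checked, such as ALB and AFP, averaged at least 28.2 FPKM. FPKM is a level scaled by gene length and by library total. Their summed level was 9059 to 9861 FPKM in the pectolinarigenin libraries and 12410 to 12610 FPKM in the control libraries. Of 9 markers of blood, endothelial and connective tissue cells only PECAM1 averaged above 1 FPKM, and LUM and HBB had 0 counts. The summed level of these 9 was 1.35 to 1.57 FPKM in the pectolinarigenin libraries and 2.85 to 3.04 FPKM in the control libraries. Pectolinarigenin library 3 stood apart from libraries 1 and 2 of its group on the second principal component, which held 7.91% of the variance. It is named below for the calls of members that changed without it, and for some of the fold changes that became smaller.

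Of the 48 genes, 41 had a mean of at least 1 FPKM over the 6 libraries and were tested, and 20 of these rose (48.8%). Over all 12829 tested genes, 25.3% rose at the same threshold, an adjusted p under 0.05 in edgeR's quasi-likelihood test. PSMD11 fell, which is 2.44% of the tested members, against 25.3% of all tested genes that fell, and 20 members did not pass. The median log2 fold change (pectolinarigenin over control) of the 41 members was 0.18, against 0.00071 over all tested genes, and the range was -0.37 to 0.50. The FPKM of all 3 pectolinarigenin libraries lay above those of all 3 control libraries in 26 of the 41 members, where 33.5% of all tested genes did so. They lay below in 2 members (PSMD11 and PSMB10), where 25.4% of all tested genes did so. Without TMM factors, which scale the libraries to each other, 24 members rose and 1 fell, and without pectolinarigenin library 3, 19 rose and 3 fell with a median of 0.10.

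**Figure D1:**
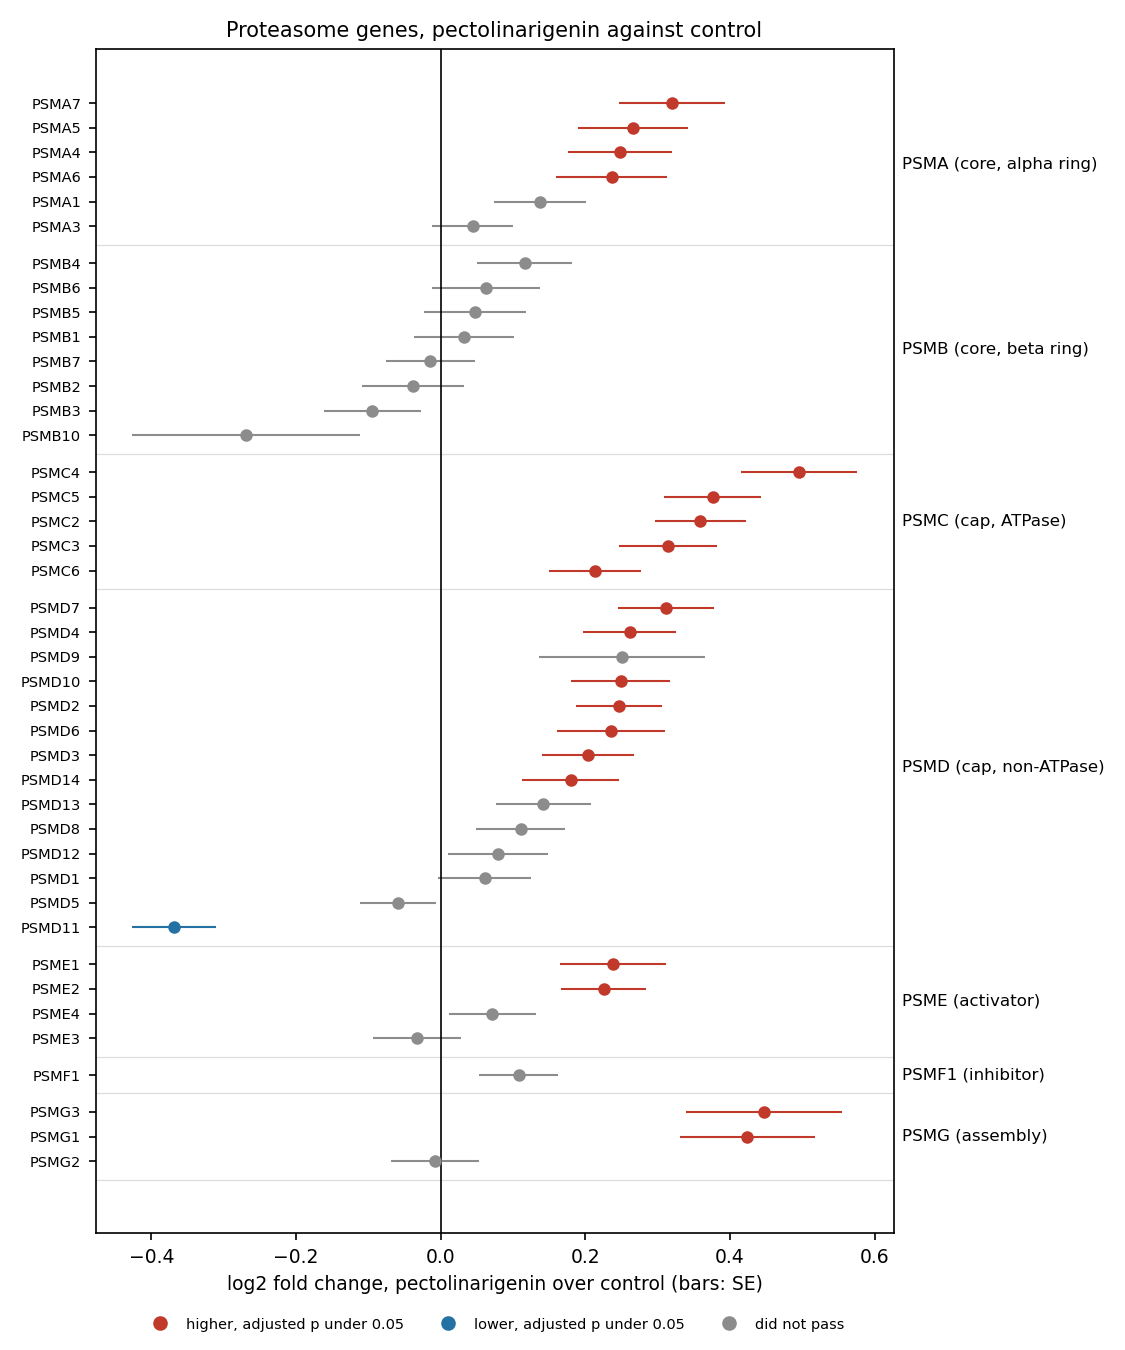
Log2 fold change of each of the 41 tested proteasome genes (x axis, pectolinarigenin over control; bars are SE), grouped by family and sorted within it (y axis). Red points passed the test as higher (20 genes), the blue point as lower (PSMD11), and grey points did not pass. All 5 tested PSMC genes are red and all 8 tested PSMB genes are grey.

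All 5 tested PSMC genes, which encode ATPases of the cap, rose, where 25.3% of all tested genes did so. Their median log2 fold change was 0.36, with a range of 0.21 to 0.50. PSMC4 (ENSG00000013275, chromosome 19, 39971005 to 39981441, GRCh38) had the largest rise of any member when all 6 libraries were used. It had 47.8, 48.3 and 59.7 FPKM in the pectolinarigenin libraries 1 to 3, against 34.6, 36.5 and 36.7 FPKM in the control libraries 1 to 3. The groups did not overlap, and pectolinarigenin library 3 was the highest. The log2 fold change was 0.50 (SE 0.081, adjusted p = 0.000131), which is 1.41-fold. Without pectolinarigenin library 3 it was 0.37, below the 0.41 of PSMG3. Without control library 3 it was 0.5075, against 0.509 for PSMG3. PSMC5 (ENSG00000087191, chromosome 17, 63827152 to 63832026) had 42.5, 42.4 and 49.4 FPKM with pectolinarigenin, against 33.5, 34.3 and 33.1 FPKM in the controls. Its log2 fold change was 0.38 (SE 0.067, adjusted p = 0.000304). PSMC2 (ENSG00000161057, chromosome 7, 103344254 to 103369395) had 19.9, 20.6 and 22.9 FPKM with pectolinarigenin, against 16.1, 15.7 and 16.3 FPKM in the controls, again without overlap. Its log2 fold change was 0.36 (SE 0.063, adjusted p = 0.000254). PSMC3 averaged 51.2 ± 4.6 FPKM with pectolinarigenin and 40.2 ± 0.6 FPKM in the controls (SD, n = 3 each; log2 fold change 0.31, SE 0.068). PSMC6 averaged 14.0 ± 1.0 and 11.8 ± 0.3 FPKM in the same order (log2 fold change 0.21, SE 0.064), and without control library 2 its adjusted p was 0.0635.

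The sixth ATPase gene, PSMC1, was listed far below its partners, at a mean of 0.683 FPKM, where the other 5 ranged from 12.9 to 45.7 FPKM. PSMC1 had 0.75, 0.85 and 0.71 FPKM with pectolinarigenin and 0.62, 0.52 and 0.65 FPKM in the controls, so that the groups did not overlap. It was below the filter; without the filter its log2 fold change was 0.35 (SE 0.175, adjusted p = 0.151). In GENCODE 29, 75.8% of its exon bases and 47.7% of its coding bases also lie in exons of NRDE2 on the opposite strand. The processed pseudogene PSMC1P1, in contrast, had 254, 256 and 407 counts with pectolinarigenin and 200, 268 and 206 in the controls, against 74, 85 and 89 and 71, 60 and 60 counts for PSMC1 itself. The 13 pseudogenes of PSMC1 held 366% as many counts as the gene. Whether reads of PSMC1 were set aside or given to a copy was not tested, so its level is uncertain.

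Of the 14 PSMD genes, which encode the non-ATPase part of the cap and its assembly chaperones, 7 rose, 1 fell and 6 did not pass, with a median log2 fold change of 0.19. The shares of all tested genes that rose and fell were 25.3% each. PSMD11 (ENSG00000108671, chromosome 17, 32444261 to 32483318), a scaffold subunit of the part of the cap called the lid, had 24.7, 22.8 and 25.0 FPKM with pectolinarigenin, against 29.5, 30.8 and 30.9 FPKM in the controls. All 3 pectolinarigenin values were below every control value, and library 3 did not stand apart here. The log2 fold change was -0.37 (SE 0.057, adjusted p = 8.94e-05), and PSMD11 fell in all 14 alternatives, with log2 fold changes from -0.40 to -0.32. PSMD7 (chromosome 16, 74296775 to 74306288), also a lid subunit, went the other way, with 43.8, 43.5 and 50.3 FPKM with pectolinarigenin and 36.3, 35.7 and 36.2 FPKM in the controls (log2 fold change 0.31, SE 0.066, adjusted p = 0.00116). An unnamed transcript on the opposite strand of PSMD7, which shares 28.4% of its coding bases, also rose (0.56, SE 0.16). It had 141, 147 and 129 counts with pectolinarigenin and 98, 84 and 93 in the controls, far fewer than PSMD7 with 1899, 1914 and 2761 and 1824, 1800 and 1479 in the same order. Whether the counting used strand is not known, so reads of these overlapping genes cannot be told apart.

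PSMD4, a ubiquitin receptor, had 58.7, 60.2 and 68.0 FPKM with pectolinarigenin and 50.5, 50.2 and 51.3 FPKM in the controls (log2 fold change 0.26, SE 0.064, adjusted p = 0.0033). ADRM1, another ubiquitin receptor that stays on the cap, lies outside the symbol rule. It had 35.9, 35.1 and 45.1 FPKM with pectolinarigenin and 26.9, 28.3 and 28.8 FPKM in the controls (0.43, SE 0.087, adjusted p = 0.000745). PSMD2, a large scaffold of the base that docks ubiquitin-like domains, had 69.0, 66.5 and 74.5 FPKM with pectolinarigenin and 57.6, 56.4 and 58.6 FPKM in the controls (0.25, SE 0.059, adjusted p = 0.00296). None of these 3 genes showed overlap between the groups. Without pectolinarigenin library 3 the log2 fold change of ADRM1 was 0.30. PSMD14, the enzyme that cuts ubiquitin chains off the substrate, had 43.2, 43.0 and 49.8 FPKM with pectolinarigenin and 38.6, 37.8 and 40.8 FPKM in the controls (0.18, SE 0.067, adjusted p = 0.0363). Its call was lost without control library 1 (adjusted p = 0.104), 2 (0.146) or 3 (0.0574), and without pectolinarigenin library 3 (0.11), where the log2 fold change was 0.10. PSMD3, PSMD6 and PSMD10 also rose, with log2 fold changes of 0.20, 0.24 and 0.25, and PSMD10 is one of the cap's assembly chaperones. PSMD3 lost its call without control library 1 (adjusted p = 0.079) and PSMD6 without control library 3 (0.0996). The small subunit SEM1 did not pass (0.070, SE 0.083, adjusted p = 0.508), with 8.34, 9.65 and 10.9 FPKM with pectolinarigenin and 9.21, 9.13 and 8.54 FPKM in the controls. PSMD1, PSMD5, PSMD8, PSMD9, PSMD12 and PSMD13 did not pass either, with log2 fold changes from -0.059 (PSMD5) to 0.25 (PSMD9), and PSMD9 had only 156 to 305 counts in a library. PSMD13 passed without TMM factors (adjusted p = 0.0271), in limma on log2(FPKM + 1) (0.0481) or log2(FPKM + 0.1) (0.0493), and without pectolinarigenin library 1 (0.0331). PSMD9 passed without TMM factors (0.0469) and without pectolinarigenin library 1 (0.0211).

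**Figure D2:**
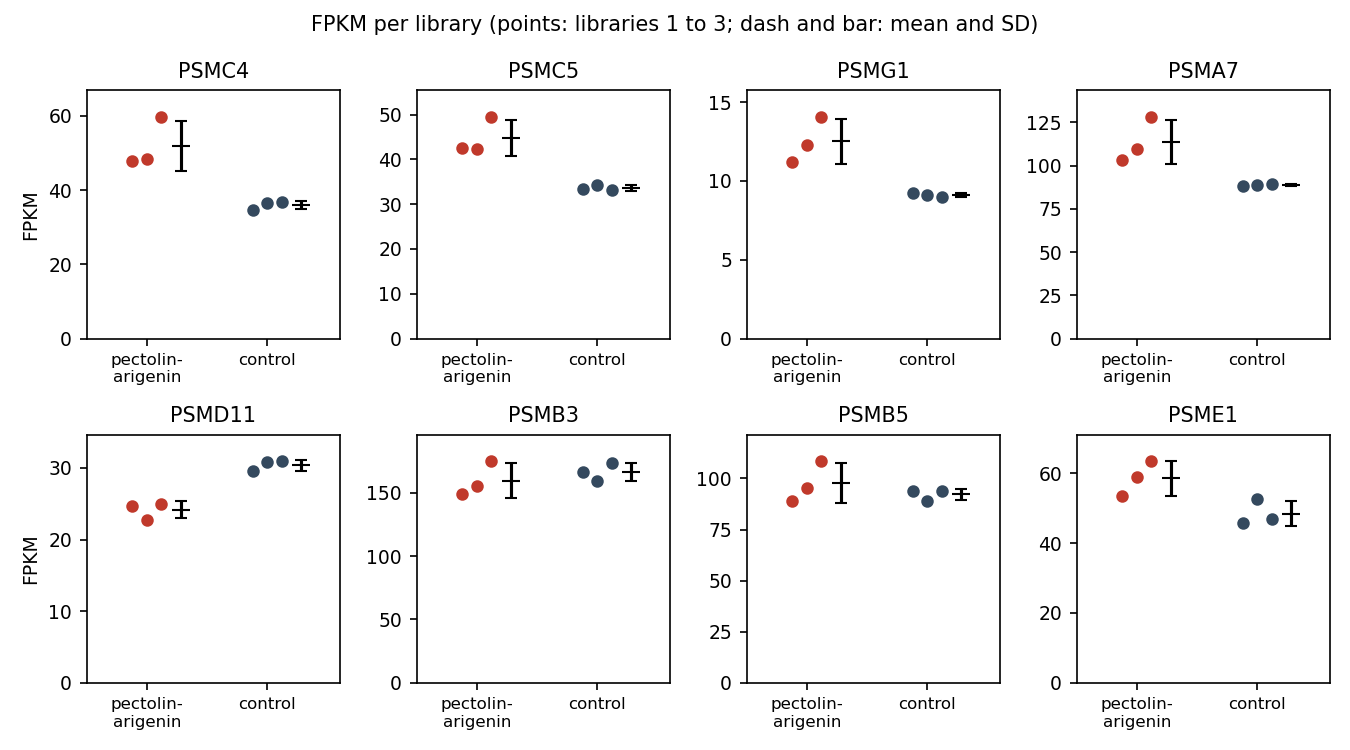
FPKM of 8 proteasome genes in each library (points, libraries 1 to 3 from left to right) with the mean and SD (dash and bar, n = 3 each), pectolinarigenin at the left and control at the right of each panel. PSMC4, PSMC5, PSMG1, PSMA7 and PSME1 lie above their controls without overlap, PSMD11 lies below, and PSMB3 and PSMB5 overlap.

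In the core particle 4 of 14 tested genes rose (28.6%), near the 25.3% of all tested genes that rose. All 4 were among the 6 tested PSMA genes of the outer ring, of which 2 did not pass. The median log2 fold change of these 6 was 0.24, with a range of 0.044 to 0.32. Of 8 tested PSMB genes of the inner ring 0 rose and 0 fell, with a median of 0.0088 and a range of -0.27 to 0.12; the unadjusted p was above 0.05 in all 8, the smallest being 0.0966 for PSMB4. By the other tools run, DESeq2 and limma, 0 PSMB genes passed as well. Of the 4 called core members, PSMA4 and PSMA6 lost their calls without control library 3 (adjusted p = 0.061 and 0.0796), PSMA6 also without control library 1 (0.056) and PSMA5 without control library 2 (0.0615). Without control library 3 the count of core genes that rose was thus 2. Without pectolinarigenin library 3, PSMB3 and PSMB2 passed as lower, at -0.17 (adjusted p = 0.00922) and -0.13 (0.0446), and without pectolinarigenin library 1 PSMB4 passed as higher, at 0.16 (0.0394).

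PSMA7 (ENSG00000101182, chromosome 20, 62136735 to 62143440) had 103.5, 109.4 and 128.1 FPKM in the pectolinarigenin libraries, against 88.1, 89.0 and 89.3 FPKM in the controls. All 3 control values were close together and lower than every pectolinarigenin value. Its log2 fold change was 0.32 (SE 0.073, adjusted p = 0.00206). PSMA5 (chromosome 1, 109399031 to 109426427) had 15.8, 17.1 and 19.2 FPKM with pectolinarigenin and 15.0, 13.1 and 14.2 FPKM in the controls (0.27, SE 0.076, adjusted p = 0.0089). PSMA4 (chromosome 15, 78540405 to 78552419) had 21.2, 21.8 and 25.4 FPKM with pectolinarigenin and 19.3, 19.0 and 17.9 FPKM in the controls (0.25, SE 0.072, adjusted p = 0.00974), and without pectolinarigenin library 3 the log2 fold change of PSMA4 was 0.15 (adjusted p = 0.0195). In all 3 genes the pectolinarigenin libraries lay above the controls and library 3 was the highest. PSMA6 rose by 0.24 (SE 0.077), while PSMA1 (0.14, SE 0.064, adjusted p = 0.0868) and PSMA3 (0.044, SE 0.056) did not pass. PSMA1 passed without TMM factors (adjusted p = 0.03), in limma on log2(FPKM + 1) (0.0487) and without pectolinarigenin library 1 (0.0335). PSMA2 was listed at a mean of only 0.382 FPKM, with 60, 66 and 54 counts with pectolinarigenin and 41, 68 and 43 in the controls, and was not tested. In GENCODE 29, 97.1% of its coding bases are also exons of a readthrough gene that joins PSMA2 to C7orf25, which itself had 8, 3 and 2 counts with pectolinarigenin and 2, 3 and 0 in the controls. PSMA1 shares 88.6% of its coding bases with another gene and averaged 37.8 FPKM. The part of shared exons in these levels was not tested. The testis gene PSMA8 had 0 counts in every library, a depth at which 3 counts equal 0.148 to 0.198 CPM.

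The 3 genes of the peptide-cutting sites had levels that overlapped between the groups. PSMB5, which carries the chymotrypsin-like site, had 89.2, 95.4 and 108.4 FPKM with pectolinarigenin and 93.8, 89.0 and 93.8 FPKM in the controls (log2 fold change 0.048, SE 0.071, adjusted p = 0.602). PSMB6, with the caspase-like site, had 100.0, 105.5 and 124.6 FPKM with pectolinarigenin and 100.7, 104.8 and 103.0 FPKM in the controls (0.063, SE 0.075, adjusted p = 0.51). PSMB7, with the trypsin-like site, had 104.3, 110.0 and 119.7 FPKM with pectolinarigenin and 110.1, 110.0 and 108.7 FPKM in the controls (-0.014, SE 0.061, adjusted p = 0.865). In each, pectolinarigenin library 3 exceeded every control value, while library 1 did not. PSMB3, the member with the highest level (162.9 FPKM on average), had 149.0, 155.0 and 174.7 FPKM with pectolinarigenin and 166.2, 159.3 and 173.0 FPKM in the controls (-0.095, SE 0.067, adjusted p = 0.257). PSMB4 had 83.4, 86.3 and 97.4 FPKM with pectolinarigenin and 77.6, 80.8 and 82.0 FPKM in the controls (0.12, SE 0.066, adjusted p = 0.154), without overlap. Without pectolinarigenin library 3 the log2 fold change of PSMB4 was 0.039.

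The inducible counterparts of the cutting subunits, which replace them in the immunoproteasome after interferon, were nearly silent. PSMB8 had 0, 3 and 1 counts with pectolinarigenin and 1, 0 and 0 in the controls, and PSMB9 had 0, 1 and 0 with pectolinarigenin and 0, 2 and 0 in the controls. These counts do not exceed 3 in a library, so no fold is given. PSMB10, the third of them, was detected at a low level, with 2.15, 2.08 and 2.21 FPKM with pectolinarigenin and 2.41, 2.67 and 2.48 FPKM in the controls. All 3 pectolinarigenin values were lower, but its log2 fold change of -0.27 had an SE of 0.16 and did not pass (adjusted p = 0.171), from 55 to 81 counts in a library. PSMB10 shares 58.3% of its coding bases with a readthrough gene on the same strand. That gene had 25, 27 and 36 counts with pectolinarigenin and 21, 38 and 20 in the controls. How reads of the shared exons were divided between the 2 genes was not tested, so the lower level of PSMB10 is uncertain. The thymus subunit PSMB11 had 0, 2 and 0 counts with pectolinarigenin and 0, 1 and 0 in the controls.

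Within a single library the balance between families does not depend on how libraries are scaled. The summed FPKM of the PSMA genes was 0.339, 0.341 and 0.337 of that of the PSMB genes in the pectolinarigenin libraries, against 0.294, 0.290 and 0.288 in the control libraries. For the PSMC genes the ratio to PSMB was 0.262, 0.258 and 0.263 with pectolinarigenin and 0.201, 0.206 and 0.200 in the controls. For the PSMD genes it was 0.645, 0.614 and 0.599 with pectolinarigenin and 0.555, 0.559 and 0.562 in the controls. None of the 3 ratios overlapped between the groups, and pectolinarigenin library 3 did not stand apart in the PSMA and PSMC ratios. With each tested gene weighted equally, the mean log2 FPKM of the family minus that of PSMB was higher with pectolinarigenin by 0.23 for PSMA, 0.37 for PSMC and 0.16 for PSMD. These ratios are given as a description, with no test, since the members were chosen with earlier results known.

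**Figure D3:**
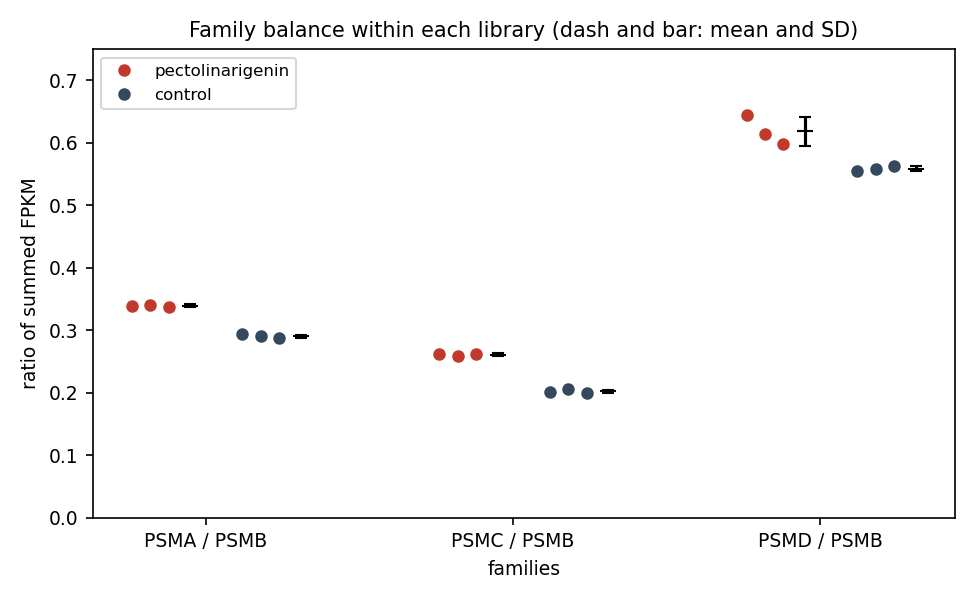
Summed FPKM of the PSMA, PSMC and PSMD genes divided by that of the PSMB genes (y axis) in each library (points; dash and bar are mean and SD, n = 3 each), pectolinarigenin at the left and control at the right of each pair. The pectolinarigenin points lie above the control points in all 3 pairs, for example at 0.258 to 0.263 against 0.200 to 0.206 for PSMC over PSMB.

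The libraries of the pectolinarigenin group differed in how far the members moved. Against the mean of the controls, the median log2 level of the 41 members (CPM scaled by TMM factors) was higher by 0.10, 0.10 and 0.27 in pectolinarigenin libraries 1, 2 and 3. The same median over all tested genes was -0.0005, 0.0022 and 0.0092. For PSMC the values were 0.26, 0.29 and 0.49, and for PSMB they were -0.105, -0.047 and 0.17. All 5 tested ATPase genes were above the control mean in each pectolinarigenin library. Among the PSMB genes, PSMB4 was above it in all 3 libraries and PSMB10 below it in all 3.

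**Figure D4:**
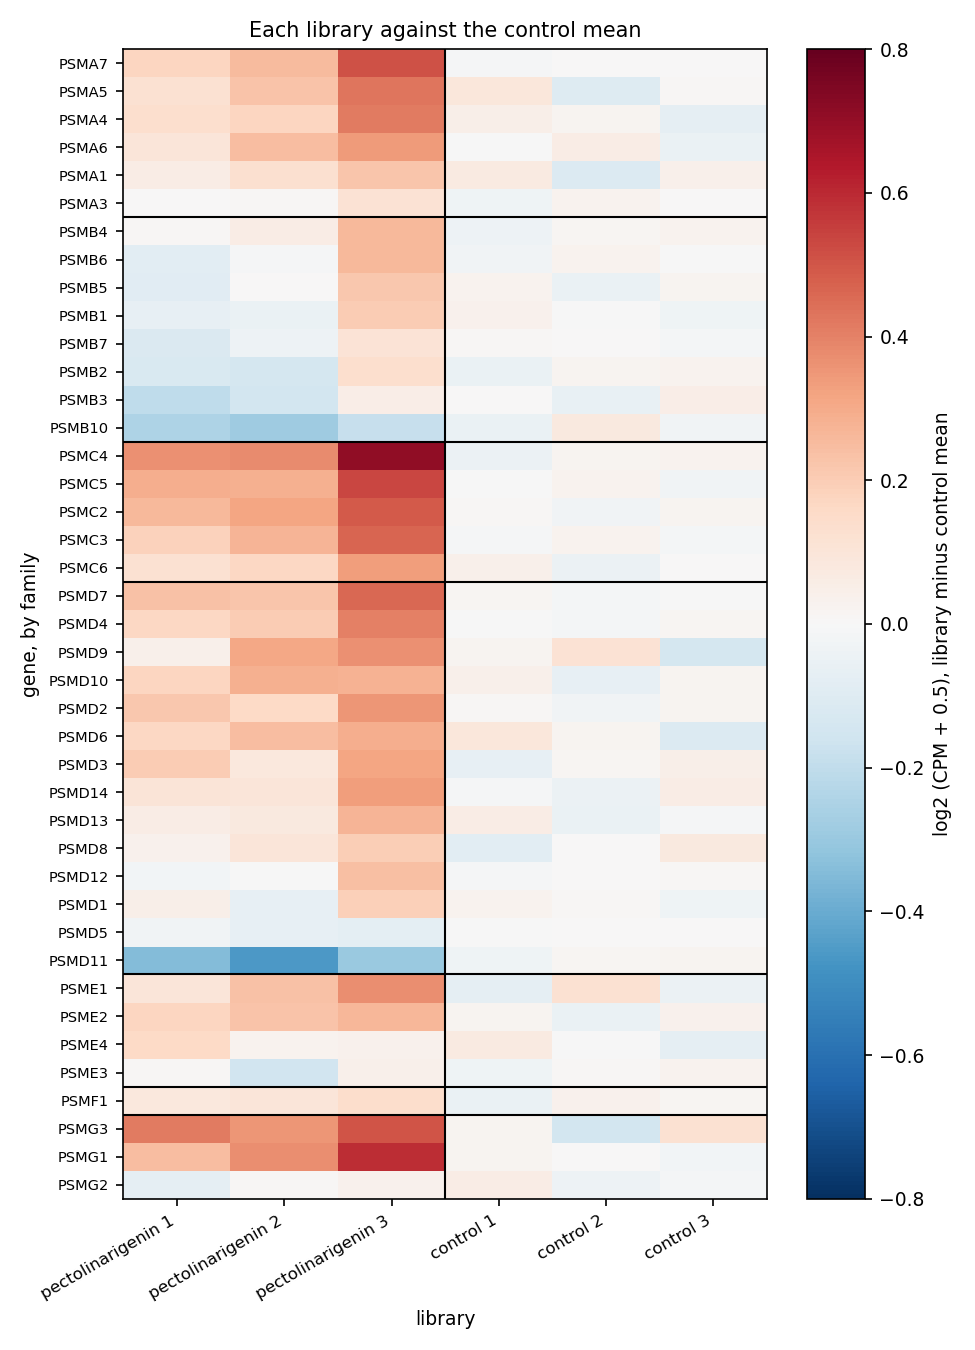
Level of each tested member in each library relative to the control mean (colour, log2 scale with red above and blue below), genes in rows by family and libraries in columns, pectolinarigenin at the left. The PSMC rows are red in all 3 pectolinarigenin columns (medians 0.26, 0.29 and 0.49). The median of the PSMB rows is -0.105, -0.047 and 0.17 in the same columns. PSMD11 and PSMB10 are blue in all 3, and PSMD5 is also below the control mean in all 3, by less (-0.026, -0.066 and -0.081).

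Among the 4 activators 2 rose, the partners of 1 ring, and the other 2 did not pass, where 25.3% of all tested genes rose. PSME1 and PSME2, whose proteins form a mixed ring that opens the core gate, lie close together on chromosome 14 (24136158 to 24138967 and 24143362 to 24147570). PSME2 had 19.1, 19.9 and 19.98 FPKM with pectolinarigenin and 16.6, 15.8 and 16.9 FPKM in the controls (log2 fold change 0.23, SE 0.059, adjusted p = 0.00501). PSME1 had 53.5, 58.8 and 63.4 FPKM with pectolinarigenin and 45.8, 52.6 and 46.9 FPKM in the controls (0.24, SE 0.074, adjusted p = 0.014). Neither gene overlapped between the groups, but PSME1 lost its call without control library 1 (adjusted p = 0.0788) or 3 (0.0684), which leaves 1 activator. PSME4, a large single-chain activator, had 23.1, 21.1 and 20.8 FPKM with pectolinarigenin and 21.0, 20.1 and 19.2 FPKM in the controls (0.072, SE 0.060, adjusted p = 0.335), and the nuclear activator PSME3 had a log2 fold change of -0.032 (SE 0.061). PSMF1, an inhibitor of the core in vitro, had 9.13, 9.20 and 9.29 FPKM with pectolinarigenin and 7.99, 8.54 and 8.45 FPKM in the controls. It did not overlap but did not pass either (0.11, SE 0.055, adjusted p = 0.116), except when TMM factors were left out (0.0372) or limma was run on log2(FPKM + 1) (0.0481) or log2(FPKM + 0.1) (0.0474).

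Of the 3 tested assembly factors 2 rose, where 25.3% of all tested genes rose. PSMG1 and PSMG2 act as a pair that gathers the PSMA subunits, and PSMG3 and PSMG4 act as a second pair. PSMG1 (ENSG00000183527, chromosome 21, 39174769 to 39183851) had 11.2, 12.3 and 14.1 FPKM with pectolinarigenin and 9.23, 9.12 and 8.99 FPKM in the controls (log2 fold change 0.42, SE 0.093, adjusted p = 0.00152). PSMG3 (ENSG00000157778, chromosome 7, 1567330 to 1571005) had 6.88, 6.59 and 7.21 FPKM with pectolinarigenin and 5.01, 4.43 and 5.42 FPKM in the controls (0.45, SE 0.11, adjusted p = 0.003). With all 6 libraries these were, after PSMC4, the largest rises of the 41 members, and the groups did not overlap in either gene. PSMG2, the partner of PSMG1, had 20.3, 21.5 and 21.4 FPKM with pectolinarigenin and 21.4, 20.1 and 20.5 FPKM in the controls (-0.0075, SE 0.061, adjusted p = 0.929). PSMG4, the partner of PSMG3, was below the filter, with 1.14, 0.96 and 0.86 FPKM with pectolinarigenin and 0.89, 0.85 and 0.82 FPKM in the controls (0.18 without the filter, SE 0.13, adjusted p = 0.363). POMP, which is outside the symbol rule, chaperones the PSMB ring into place. It had 67.5, 71.9 and 87.2 FPKM with pectolinarigenin and 57.2, 51.2 and 50.1 FPKM in the controls, and rose by 0.48 (SE 0.089, adjusted p = 0.000373). Without pectolinarigenin library 3 the log2 fold change was 0.35 for POMP and 0.32 for PSMG1.

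The members' levels also differed widely within families. Among tested members, FPKM averaged over the 6 libraries ran from 5.66 (PSMA6) to 101.2 (PSMA7) in PSMA, from 2.33 (PSMB10) to 162.9 (PSMB3) in PSMB, from 12.9 (PSMC6) to 45.7 (PSMC3) in PSMC and from 1.45 (PSMD9) to 63.8 (PSMD2) in PSMD. Without PSMB10 the PSMB genes spanned 40.1 to 162.9 FPKM, a 4.07-fold range. These levels use the authors' gene lengths. In GENCODE 29, 23 of the 48 members share exon bases with another gene. Over 20% of the coding bases are shared in 7 members: PSMA1, PSMA2, PSMA6, PSMB10, PSMC1, PSMD7 and PSMD9. These include PSMA6, PSMB10 and PSMD9, the lowest tested members of their families, and also PSMA1 and PSMD7, at 37.8 and 41.0 FPKM. The part of shared exons in the spread of levels was not tested. The table also lists 62 pseudogenes named for members, of which 29 had counts. Their counts were under 10% of the member's own in every member but PSMC1, the next highest being PSMA6 (6.58%) and PSMC6 (3.79%).

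The promoters of members are shown because these genes are known to be controlled together. RefSeq's table for GRCh38.p14 held 51 start sites of 42 members. Each was searched over the 250 bases before the start, on both strands, for TGACNNNGC, the core of the antioxidant response element to which NFE2L1 and related factors bind, and for CCAAT, the box bound by NF-Y. The motifs were counted separately and any overlap between them was allowed. TGACNNNGC was found for 13 of the 42 members (25.5% of their 51 start sites), against 10.9% of all 35116 start sites in the table. CCAAT was found for 19 of the 42 members (37.3% of their start sites), against 32% of all start sites. Of the 17 members with a listed promoter that rose, 6 held TGACNNNGC and 11 held CCAAT. Of the 17 that did not pass, 6 and 5 did so in the same order. In these counts a member holds a motif if any of its start sites does. They are therefore not comparable with the shares of start sites given above. A match is a description of these letters and not a binding site. The sequences below, chosen after their values were seen, are those of 4 genes that rose, of PSMB3, which holds both motifs and did not pass, and of PSMD11, which fell. Each runs 5′ to 3′ on the gene's own strand, and capitals mark TGACNNNGC or CCAAT on either strand.
PSMC4, chr19:39970915-39971164, plus strand: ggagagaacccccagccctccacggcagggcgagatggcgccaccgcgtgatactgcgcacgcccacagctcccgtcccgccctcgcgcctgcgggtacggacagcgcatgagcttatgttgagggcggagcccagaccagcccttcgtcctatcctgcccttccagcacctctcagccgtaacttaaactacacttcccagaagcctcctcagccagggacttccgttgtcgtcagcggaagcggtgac
PSMC5, chr17:63827471-63827720, plus strand: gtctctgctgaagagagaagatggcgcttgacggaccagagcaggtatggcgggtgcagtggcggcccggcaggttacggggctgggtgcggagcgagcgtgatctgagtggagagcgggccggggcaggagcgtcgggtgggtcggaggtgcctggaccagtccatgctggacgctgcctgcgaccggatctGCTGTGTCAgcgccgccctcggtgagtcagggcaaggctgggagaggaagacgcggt
PSMC2, chr7:103347393-103347642, plus strand: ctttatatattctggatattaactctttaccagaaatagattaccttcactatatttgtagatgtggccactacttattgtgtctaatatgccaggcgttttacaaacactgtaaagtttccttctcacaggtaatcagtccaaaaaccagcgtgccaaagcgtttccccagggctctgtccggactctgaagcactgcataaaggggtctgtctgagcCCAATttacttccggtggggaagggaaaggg
PSMG1, chr21:39183452-39183701, minus strand: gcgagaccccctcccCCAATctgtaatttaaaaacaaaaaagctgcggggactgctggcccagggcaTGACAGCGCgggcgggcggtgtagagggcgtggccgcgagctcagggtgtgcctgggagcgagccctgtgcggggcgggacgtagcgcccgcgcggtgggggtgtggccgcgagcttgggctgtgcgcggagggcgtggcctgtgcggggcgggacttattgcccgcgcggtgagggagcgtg
PSMB3, chr17:38752491-38752740, plus strand: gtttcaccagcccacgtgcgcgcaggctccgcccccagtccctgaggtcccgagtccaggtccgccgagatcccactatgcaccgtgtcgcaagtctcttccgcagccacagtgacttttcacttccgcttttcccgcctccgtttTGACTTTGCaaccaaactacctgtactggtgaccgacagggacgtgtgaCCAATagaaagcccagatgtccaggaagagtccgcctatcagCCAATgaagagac
PSMD11, chr17:32444260-32444509, plus strand: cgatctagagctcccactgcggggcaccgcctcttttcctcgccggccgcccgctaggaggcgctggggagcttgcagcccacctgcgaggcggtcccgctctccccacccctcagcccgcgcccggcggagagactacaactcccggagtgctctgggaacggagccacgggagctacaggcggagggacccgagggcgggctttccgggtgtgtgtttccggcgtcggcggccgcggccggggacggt
PSMC4, the member with the largest rise over all 6 libraries, and PSMD11, the member that fell, held neither motif in this window. The printed window of PSMC5 held TGACNNNGC alone, that of PSMC2 held CCAAT alone, and those of PSMG1 and PSMB3 held both. RefSeq's table has another start site for PSMC5, whose window (not printed) held CCAAT and counts for PSMC5 above. The printed windows of PSMC5, PSMC2 and PSMG1 lie inside the span that GENCODE 29 gives these genes. GENCODE 29 starts PSMC4 at 39971005 and PSMD11 at 32444261, so most of both windows also lies inside the gene. It starts PSMB3 at 38752736, near the end of the printed window. The PSMC4 window begins at 39970915, so its lack of a motif describes only the nearest bases before the GENCODE start. The PSMD11 window begins at 32444260, so it describes almost none of the bases before the GENCODE start of PSMD11.

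Genes that work with the proteasome but lie outside the symbol rule were described from 7 lists of known roles. Of 47 listed genes 44 were tested, 18 rose and 5 fell, with a median log2 fold change of 0.11; the shares of all tested genes that rose and fell were 25.3% each. In the list of assembly factors and proteasome regulators 7 of 10 rose and 0 fell, with a median of 0.52. Besides POMP these were the proteasome-binding proteins ZFAND5, ZFAND2A, ZFAND2B, PITHD1 and TXNL1 and the proteasome phosphatase UBLCP1. ZFAND5 had 38.1, 37.9 and 37.8 FPKM with pectolinarigenin and 25.4, 23.9 and 25.8 FPKM in the controls (0.56, SE 0.054, adjusted p = 1.02e-06). PITHD1 had 12.6, 14.6 and 14.1 FPKM with pectolinarigenin and 8.50, 8.17 and 8.81 FPKM in the controls (0.66, SE 0.084), and ZFAND2A had 11.6, 12.8 and 11.5 FPKM with pectolinarigenin and 6.99, 7.49 and 7.67 FPKM in the controls (0.66, SE 0.083). In these 3 genes pectolinarigenin library 3 did not stand above libraries 1 and 2. The cap chaperone PAAF1, AKIRIN2, which brings proteasomes into the nucleus, and ECPAS did not pass, with log2 fold changes of -0.12, -0.11 and 0.099.

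Of 9 genes of the NFE2L1 pathway 4 rose and 1 fell. Among all tested genes 25.3% rose, 25.3% fell and 50.6% passed in either direction. The share of this list that passed in either direction is near that of all genes. The share that rose is above that of all genes and the share that fell is below it. With only 9 genes, these differences were not tested. NFE2L1 itself had 49.6, 46.9 and 51.0 FPKM with pectolinarigenin and 43.0, 45.0 and 44.0 FPKM in the controls, without overlap. Its log2 fold change was 0.12 (SE 0.056, adjusted p = 0.0801). It passed without TMM factors (0.022), in limma on log2(FPKM + 1) (0.0241) and log2(FPKM + 0.1) (0.0249), and without pectolinarigenin library 2 (0.0434). DDI2, the protease that activates NFE2L1, had 12.6, 10.96 and 10.2 FPKM with pectolinarigenin and 14.7, 14.5 and 14.4 FPKM in the controls, and fell by 0.41 on the log2 scale (SE 0.068, adjusted p = 0.000169). NGLY1, which removes the sugars of NFE2L1, rose by 0.33 (SE 0.10), and the small MAF genes, whose proteins pair with NFE2L1 on DNA, rose by 1.16 (MAFF, SE 0.10), 0.86 (MAFK, SE 0.10) and 0.62 (MAFG, SE 0.061). MAFF had 4.43, 3.96 and 4.84 FPKM with pectolinarigenin, against 1.96, 1.97 and 1.86 FPKM in the controls. VCP, SYVN1 and SEL1L, which draw NFE2L1 out of the endoplasmic reticulum, did not pass (-0.030, 0.0079 and -0.035).

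Over all tested genes, 50.6% passed the test in either direction. Of 4 genes for ubiquitin and its activating enzymes, the polyubiquitin gene UBB (0.25, SE 0.060) rose, UBA6, an activating enzyme, fell by 0.31 on the log2 scale (SE 0.058), and UBA1 and RPS27A did not pass. UBA6 had 7.47, 6.94 and 7.28 FPKM with pectolinarigenin and 9.05, 8.41 and 8.67 FPKM in the controls. Of 8 shuttle factors and enzymes bound to the cap, the deubiquitinase USP14 (0.17, SE 0.060) rose and UBQLN2 (-0.23, SE 0.075) and UBQLN4 (-0.18, SE 0.070) fell. Of 7 cofactors of VCP, which unfolds ubiquitin-tagged proteins, 3 rose, with UBXN1 at 0.35 (SE 0.056, adjusted p = 0.000121), and 0 fell. Of 7 partners in antigen processing 4 were tested. TAPBP, which loads peptides, fell by 0.47 on the log2 scale (SE 0.061), while IRF1 rose by 0.53 (SE 0.11). TAP1, TAP2 and NLRC5 were below the filter, at 0.163, 0.267 and 0.0567 FPKM with pectolinarigenin and 0.140, 0.293 and 0.0433 FPKM in the controls.

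**Figure D5:**
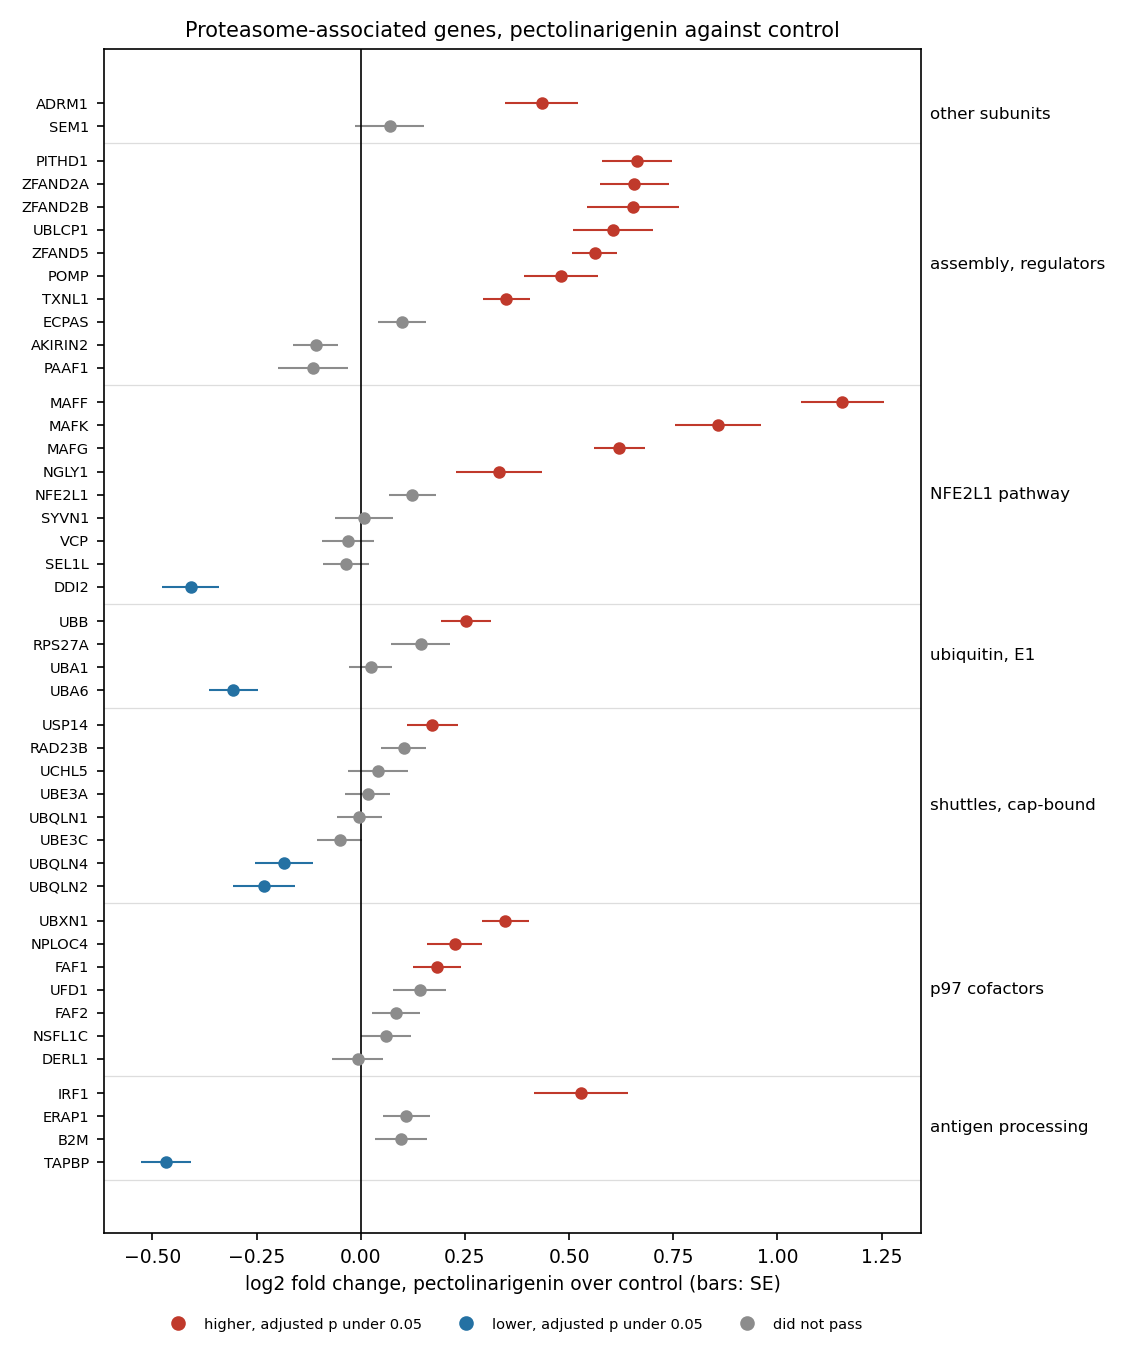
Log2 fold change of 44 tested genes that work with the proteasome (x axis, pectolinarigenin over control; bars are SE), grouped by list and sorted within it (y axis). Red points passed the test as higher (18 genes), blue points as lower (5 genes), and grey points did not pass. The list of assembly factors and regulators holds 7 red points, and MAFF lies furthest to the right at 1.16.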

How the data were processed

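RNA was measured in 6 libraries, 3 per group. The deposited table gives a raw count and an FPKM per Ensembl gene and library. The counts are whole numbers and were taken as not normalized. The other columns are headed FPKM, which by definition is scaled by gene length and library total. The tools cutadapt 1.9.1, HISAT2 2.0.1 and HTSeq 0.6.1 and the build GRCh38 are named in the submitters' processing notes. Their roles, the annotation release and the strand setting are not known here.

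Counts of genes with a mean of at least 1 FPKM (12829 genes) were tested with edgeR 4.0.16 (R 4.3.3), quasi-likelihood, TMM factors, no covariate, 2-sided, with Benjamini-Hochberg adjustment over all tested genes and a threshold of 0.05. The pipeline was tested on simulated data. SE is the log2 fold change divided by the root of F. Libraries of a group differed by more than sampling noise (chi-square per degree of freedom 4.51 to 11.1 with pectolinarigenin and 1.53 to 2.73 in the controls). With 3 counts a library reaches 0.148 to 0.198 CPM, and such floors cover counting error only. The alternatives were median-of-ratios factors, no TMM factors, DESeq2 1.42.0, limma 3.58.1 on log2(FPKM + 1) and log2(FPKM + 0.1), no expression filter, a mean of at least 5 FPKM, a replicate block, and leaving out each library.

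The members and lists were chosen with earlier results of these data known. Library values are given for the 3 members with the smallest p in each family, the 3 largest changes in each direction, the cutting subunits with their inducible counterparts, and PSMD4, ADRM1, PSMD14 and PSMF1. Outside the members, the gene with the smallest p of each list is named, with NFE2L1, POMP and SEM1. Some genes of these lists are not reported here. Other genes were picked for naming with their values in view. Gene positions and shared exons are from GENCODE 29 and promoters from RefSeq.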

Additional observations from a re-analysis of the deposited data

How the results depend on the processing

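The counts of members that rose (20) and fell (1) were 19 to 24 and 1 under other scalings, tests and filters, and 15 to 24 and 1 to 3 without single libraries. The lowest count of rises was without control library 3. All 20 genes that rose also rose under each scaling, test and filter tried, except that 1 was left out at a mean of at least 5 FPKM, and 15 of them also rose without control library 3. The 3 falls were without pectolinarigenin library 3, which added PSMB2 and PSMB3 to PSMD11. Without single libraries, 2 to 6 core genes rose (2 without control library 3) and 0 to 2 fell (2 without pectolinarigenin library 3), and 1 or 2 activators rose (1 without control library 1 or 3). The cap and assembly counts and the count of associated genes that changed (23) stayed within 1.5 times of the reported ones, with 10 to 14 rises in the cap. The cause of these shifts was not tested. Scaling matters for small changes: 56.9% of all changed genes were higher without TMM factors, 57.5% in limma on log2(FPKM + 1), and 50% with TMM, and the median of all genes moved by less than 0.1.

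Genes near 0 changed sign, and did not pass the test in the fits where they did. Without TMM factors, in limma with pseudocounts of 1 and 0.1, PSMG2 was 0.030, 0.029 and 0.030, PSMB7 0.023, 0.020 and 0.020, and PSME3 0.0050, 0.0028 and 0.0029. Without the expression filter PSMG2 was 0.014 and PSMB7 0.0078. Over the fits that left out 1 library, the log2 fold changes ran, for the genes that changed sign, as PSMB1 -0.058 to 0.077, PSMB2 -0.13 to 0.011, PSMB5 -0.042 to 0.11, PSMB6 -0.044 to 0.13, PSMB7 -0.077 to 0.032, PSMD1 -0.0053 to 0.12, PSMD12 -0.0093 to 0.13, PSME3 -0.067 to 0.024, PSMG2 -0.028 to 0.022 and SEM1 -0.039 to 0.16. PSMB1, PSMB5, PSMB6, PSMD1, PSMD12 and SEM1 changed sign without pectolinarigenin library 3, PSMB2 and PSME3 without pectolinarigenin library 2, PSMB7 without pectolinarigenin library 1, and PSMG2 without pectolinarigenin library 1 or control library 1.

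With a replicate block 20 members rose and 1 fell, and no count of members changed. The deviations of same-numbered libraries correlated at 0.037, 0.0096 and 0.033. Each correlated best with its own number, and the other pairings were negative. Correlations this small among so few libraries cannot decide whether the libraries were paired. Depth limits the genes listed at 0 to 3 counts, PSMA8, PSMB8, PSMB9 and PSMB11, for which no difference was detectable.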

Other observations

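A pseudogene of PSMC5 (ENSG00000235859) had 50, 54 and 62 counts in the pectolinarigenin libraries and 81, 81 and 68 in the control libraries, and fell by 0.51 on the log2 scale (edgeR, SE 0.16, adjusted p = 0.0133), while PSMC5 rose by 0.38. PSMC1P1 rose by 0.39 (SE 0.13, adjusted p = 0.0201), and PSMC1 itself did not pass without the expression filter (0.35, SE 0.175). Pseudogenes of PSMC6 (0.23, SE 0.19) and PSMA6 (-0.20, SE 0.25) did not pass. The share of reads that the authors' counting divided among these copies was not tested.

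Among the paired assembly factors, PSMG1 rose and PSMG2 did not pass, and PSMG3 rose while PSMG4 was below the filter and not tested. The differences between partners were not tested.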
